A study of Mus musculus with 11 samples.

Results

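The 5 genes *Zfas1*, *Gas5*, *Epb41l4aos*, *1110038B12Rik* and *2410006H16Rik*, of 53801 genes counted in the series, are described here. Each is a non-coding gene that carries small nucleolar RNA (snoRNA) genes within its span. They were chosen by their log2 fold changes between *Smg6*-iKO and control libraries, as the largest rises among such hosts, with *Gas5* added by name. Their rises are therefore given as a description without a test. Transcriptomes were measured in cultured neural progenitor cells (NPCs) from the brains of mouse embryos at embryonic day E13.5, of a mixed C57BL/6 and 129SV background. All 11 cultures were homozygous for a floxed *Smg6* allele. The Ctr group (n = 3, embryos SMH_128, SMH_132 and SMH_133) carried the RosaCreER transgene, a recombinase that 4-hydroxytamoxifen (4-OHT) switches on, and received no 4-OHT. The Ctr + 4-OHT group (n = 4, embryos SMH_125, SMH_126, SMH_129 and SMH_131) lacked RosaCreER and was treated with 1 µM 4-OHT. The *Smg6*-iKO group (n = 4, embryos SMH_127, SMH_128, SMH_132 and SMH_133) carried RosaCreER and was treated alike. The labels give 3 days of treatment. *Smg6*-iKO thus differs from Ctr + 4-OHT also by the transgene and from Ctr also by 4-OHT, and deletion in a culture reaches only the cells in which the recombinase worked.

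Nonsense-mediated mRNA decay (NMD) removes transcripts on which a ribosome stops upstream of an exon junction. UPF1 and its partners recognise such a stop, and SMG6 is the endonuclease that cuts the RNA near it. SnoRNA hosts are spliced transcripts whose introns are trimmed into snoRNAs, guides that direct chemical modification of ribosomal and spliceosomal RNA. The spliced exons of many of these hosts hold only short reading frames, and *Gas5*, named for its accumulation in growth-arrested cells, is a classical example of a host whose spliced RNA is an NMD substrate.

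Between 26418249 and 33756875 reads were counted on genes per library, so that the 5 hosts rested on 537 to 23405 reads each. Levels are normalised counts relative to library size (CPM, counts per megaread after TMM scaling), given as mean ± SD over 3 Ctr, 4 Ctr + 4-OHT and 4 *Smg6*-iKO libraries where no single library is named. Counted over the whole gene, *Smg6* averaged 74.4 ± 4.96 CPM in untreated Ctr, 69.3 ± 3.22 CPM in treated controls and 66.0 ± 4.57 CPM after deletion. The gene total does not separate the floxed part from the rest and therefore does not check the deletion. *Esr1*, the gene of the oestrogen receptor that the fused recombinase borrows from, lay between 3.89 and 4.71 CPM in *Smg6*-iKO, between 4.09 and 4.67 CPM in Ctr and between 0.0323 and 0.283 CPM in Ctr + 4-OHT, which matched the labelled RosaCreER genotypes. Markers of neural progenitors were abundant, with summed levels of 4230 to 4810 CPM in *Smg6*-iKO, 4350 to 5330 CPM in Ctr + 4-OHT and 4910 to 5100 CPM in Ctr. Of these 6 markers, 0 passed the test against Ctr + 4-OHT, where 1.17% of all genes tested were called, and 4 (*Hes5*, *Sox2*, *Pax6* and *Fabp7*) were lower against Ctr, where 896 of all 17974 genes tested were lower. Microglial markers summed to at most 1.26 CPM and erythroid markers to at most 0.0719 CPM in any library. Neuronal markers summed to 1960 to 2250 CPM in *Smg6*-iKO, 1540 to 2500 CPM in Ctr + 4-OHT and 1680 to 1840 CPM in Ctr, and those of astrocytes and the oligodendrocyte lineage to 428 to 516 CPM and 595 to 905 CPM over all libraries. Of these 3 lists only *Gfap* passed the test, against Ctr alone, where 9.25% of all genes were called (log2 fold change 1.33, SE 0.32, edgeR quasi-likelihood test with Benjamini-Hochberg adjustment, adjusted p = 0.0288). Endothelial markers stayed under 2.79 CPM, and mesenchymal markers ranged from 36.9 to 248 CPM in *Smg6*-iKO, highest in embryo SMH_127, against 39.6 to 141 CPM in Ctr + 4-OHT and 52.4 to 77.9 CPM in Ctr. The part of these markers in the levels of the hosts was not tested. In bulk RNA a change in the share of cells that express a gene and a change in RNA per cell cannot be told apart.

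For each of the 5 hosts, the *Smg6*-iKO libraries all lay above the control libraries. The choice of the genes favours this, and the share of all genes that separate in this way was not counted. The lowest *Smg6*-iKO library exceeded the highest control library 3.92-fold for *Zfas1*, 3.03-fold for *1110038B12Rik*, 3.02-fold for *Epb41l4aos*, 2.36-fold for *2410006H16Rik* and 1.99-fold for *Gas5*. Among all genes tested, 0.757% were called higher in *Smg6*-iKO than in Ctr + 4-OHT (1.17% in either direction, at an adjusted p under 0.05), and 4.27% were called higher than in Ctr (9.25% in either direction). The split against Ctr depended on scaling, with 767 genes higher and 896 lower as tested and 1089 higher and 694 lower with upper-quartile factors. All 5 hosts belong to both sets of higher genes, which the choice of the genes fixed. Together they took 0.0498% to 0.0684% of all counted reads in the control libraries and 0.176% to 0.209% in *Smg6*-iKO.

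**Figure D1:**
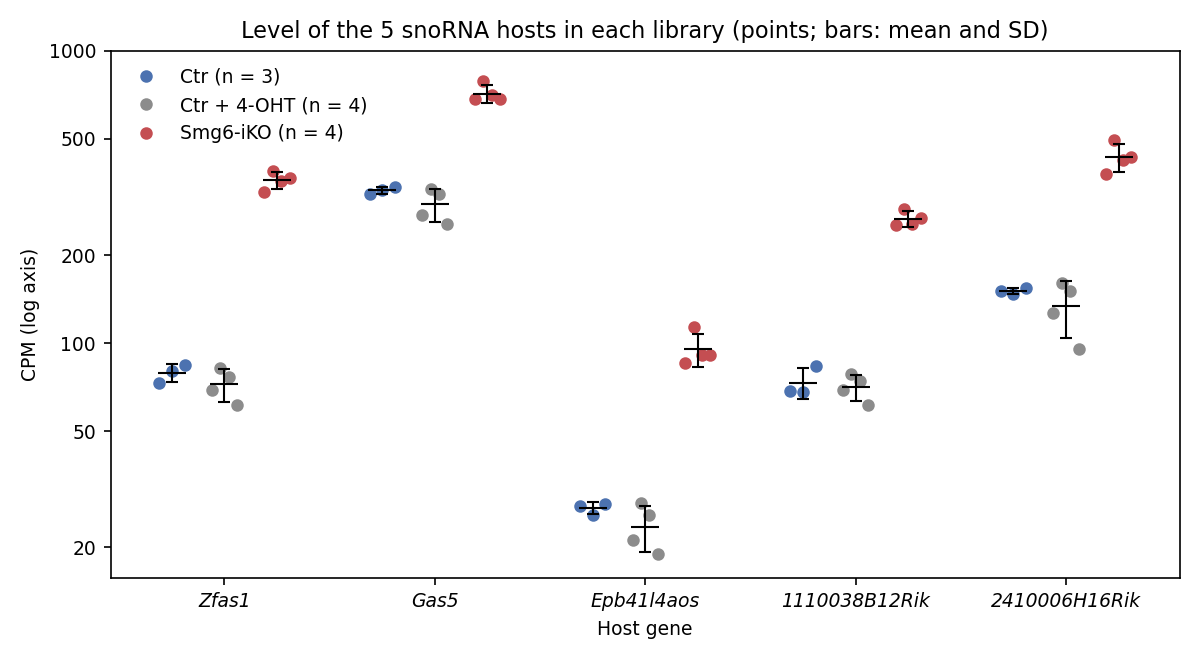
Level of each host in CPM on a log axis, with 1 point per library, coloured by group, and bars for the mean and SD. Every *Smg6*-iKO point of a gene lies above all of its control points, and the widest gap is that of *Zfas1*, with 329.9 CPM in its lowest *Smg6*-iKO library against 84.2 CPM in its highest control library. The choice of the genes favours this separation.

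*Zfas1* (ENSMUSG00000074578, GRCm38 chr2:167062934-167065862, plus strand), known from the mammary gland and transcribed away from the 5′ end of *Znfx1*, hosts *Snord12* and 2 further snoRNA genes (Gm25878 and Gm23201). It had 73.2, 80.1 and 84.2 CPM in Ctr from embryos SMH_128, SMH_132 and SMH_133. In Ctr + 4-OHT it had 69.0, 82.3, 76.8 and 61.2 CPM in embryos SMH_125, SMH_126, SMH_129 and SMH_131. In *Smg6*-iKO it had 329.9, 389.1, 358.2 and 366.7 CPM in embryos SMH_127, SMH_128, SMH_132 and SMH_133. The control groups overlapped and the *Smg6*-iKO libraries stood apart. The log2 fold change was 2.33 (SE 0.094) against Ctr + 4-OHT and 2.19 (SE 0.075) against Ctr, the largest of the 5 in both. Within the embryos that gave a culture of each kind, the *Smg6*-iKO level was 5.31-fold that of Ctr in embryo SMH_128, 4.47-fold in embryo SMH_132 and 4.36-fold in embryo SMH_133.

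Transcript Zfas1-205, of the highest annotated support level, holds 738 bases in 5 exons. Its first ATG opens a frame of 17 codons, and all 4 exon junctions lie more than 50 bases downstream of the stop, the last of them 437 bases away. It is shown from its first base to the end of that frame, with the frame in capitals, because NMD depends on where a ribosome stops relative to the junctions. Whether this frame is translated was not tested. The sequence is from the GENCODE M21 transcripts.

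Zfas1-205: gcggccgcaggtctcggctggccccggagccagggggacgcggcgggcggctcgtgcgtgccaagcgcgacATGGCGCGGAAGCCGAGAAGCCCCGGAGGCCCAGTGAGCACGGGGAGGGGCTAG

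*2410006H16Rik* (ENSMUSG00000086841, GRCm38 chr11:62602877-62604807, plus strand) hosts *Snord49b*, *Snord49a* and *Snord65*. It had 150.8, 147.6 and 154.5 CPM in Ctr from embryos SMH_128, SMH_132 and SMH_133. In Ctr + 4-OHT it had 126.95, 161.1, 150.3 and 95.6 CPM in embryos SMH_125, SMH_126, SMH_129 and SMH_131. In *Smg6*-iKO it had 380.2, 493.7, 422.1 and 432.1 CPM in embryos SMH_127, SMH_128, SMH_132 and SMH_133. The 4 Ctr + 4-OHT libraries spread more widely than the 3 Ctr libraries, with embryo SMH_131 lowest. The log2 fold change was 1.70 (SE 0.15) against Ctr + 4-OHT and 1.52 (SE 0.083) against Ctr. The ratio within an embryo was 3.27, 2.86 and 2.80 in embryos SMH_128, SMH_132 and SMH_133.

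The only annotated transcript of this gene has 462 bases in 5 exons. Its first ATG follows 13 bases and opens a frame of 44 codons, the stop of which is followed by 3 junctions, 2 of them more than 50 bases away. It is printed in the same way, with the frame in capitals. Below it stand the 3 snoRNAs in its introns, from the same source, with the C box (TGATGA) and the D box (CTGA) in capitals, the motifs that proteins of the snoRNA particle bind. *Snord49b* spans chr11:62603079-62603150, *Snord49a* chr11:62603450-62603521 and *Snord65* chr11:62604515-62604586, all on the plus strand.

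2410006H16Rik-201: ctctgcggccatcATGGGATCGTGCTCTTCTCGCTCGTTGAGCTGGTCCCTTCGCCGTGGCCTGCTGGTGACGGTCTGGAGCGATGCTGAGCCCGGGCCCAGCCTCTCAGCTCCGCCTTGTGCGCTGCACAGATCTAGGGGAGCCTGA
Snord49b: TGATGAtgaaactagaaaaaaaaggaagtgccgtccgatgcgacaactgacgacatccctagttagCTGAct
Snord49a: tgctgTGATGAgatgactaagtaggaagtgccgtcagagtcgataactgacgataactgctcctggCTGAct
Snord65: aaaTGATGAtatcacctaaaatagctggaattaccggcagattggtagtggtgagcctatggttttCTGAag

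The 3 snoRNAs are each 72 bases long, and their D boxes start at base 67 in all of them. *Snord49a* and *Snord49b* share a run of 13 bases, AGGAAGTGCCGTC, that starts at base 23 in both, whereas the longest run that *Snord65* shares with *Snord49b* is 7 bases at the C box. Of the 18 snoRNA genes of the 4 hosts whose sequences were read, 16 held both motifs in this order on the transcribed strand.

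*1110038B12Rik* (ENSMUSG00000092203, GRCm38 chr17:34950238-34952471, minus strand) hosts *Snord52* and Gm25744 and lies in the major histocompatibility region near the heat-shock gene *Hspa1b*. It had 68.6, 67.9 and 83.4 CPM in Ctr from embryos SMH_128, SMH_132 and SMH_133. In Ctr + 4-OHT it had 68.9, 78.5, 74.0 and 61.5 CPM in embryos SMH_125, SMH_126, SMH_129 and SMH_131. In *Smg6*-iKO it had 252.8, 288.6, 255.4 and 267.8 CPM in embryos SMH_127, SMH_128, SMH_132 and SMH_133. The control groups overlapped. The log2 fold change was 1.92 (SE 0.080) against Ctr + 4-OHT and 1.86 (SE 0.085) against Ctr. The ratio within an embryo was 4.21, 3.76 and 3.21 in embryos SMH_128, SMH_132 and SMH_133. Its transcript 1110038B12Rik-201 has 579 bases in 5 exons with the longest first frame of the 5 hosts, 51 codons. Only 1 junction follows the stop, at 95 bases.

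1110038B12Rik-201: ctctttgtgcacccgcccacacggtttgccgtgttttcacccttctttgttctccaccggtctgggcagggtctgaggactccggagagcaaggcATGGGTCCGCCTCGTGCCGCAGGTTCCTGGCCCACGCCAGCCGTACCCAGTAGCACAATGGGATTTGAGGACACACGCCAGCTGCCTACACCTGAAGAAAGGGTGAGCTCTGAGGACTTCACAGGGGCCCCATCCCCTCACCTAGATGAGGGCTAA

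*Gas5* (ENSMUSG00000053332, GRCm38 chr1:161034422-161038539, plus strand) is annotated with 10 snoRNA genes, of which 2 overlapping entries bear the name *Snord80*, and with 25 transcripts, 20 of them with a retained intron. It had 322.9, 335.2 and 342.2 CPM in Ctr from embryos SMH_128, SMH_132 and SMH_133. In Ctr + 4-OHT it had 275.4, 337.9, 324.2 and 254.7 CPM in embryos SMH_125, SMH_126, SMH_129 and SMH_131. In *Smg6*-iKO it had 682.6, 785.9, 704.2 and 681.2 CPM in embryos SMH_127, SMH_128, SMH_132 and SMH_133. Again the control groups overlapped and embryo SMH_131 was lowest. The log2 fold change was 1.27 (SE 0.096) against Ctr + 4-OHT and 1.10 (SE 0.065) against Ctr, the smallest of the 5 hosts. The ratio within an embryo was 2.43, 2.10 and 1.99 in embryos SMH_128, SMH_132 and SMH_133. Transcript Gas5-224, of 502 bases, has 12 exons and a first frame of 23 codons that ends upstream of 9 junctions, 7 of them more than 50 bases away.

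Gas5-224: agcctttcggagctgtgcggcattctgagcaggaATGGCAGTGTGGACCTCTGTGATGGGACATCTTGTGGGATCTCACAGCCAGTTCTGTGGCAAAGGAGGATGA

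The base at which a host starts was also compared, since many host transcripts and ribosomal protein mRNAs begin with a C followed by a run of pyrimidines. Windows of 10 bases on each side of the annotated start were searched on the transcribed strand for a C followed by at least 4 bases that are C or T. Of 32851 RefSeq start windows of GRCm38.p6, 25.5% held such a run. For 4 of the 5 hosts 6 such windows were found, and 4 of the 6 held a run, whereas the window of *Zfas1* and the upstream of both *Gas5* windows did not. The windows of one gene can overlap, as those of *1110038B12Rik* do. The 20 bases before and after the start are shown, with the run in capitals, for *2410006H16Rik* (chr11:62602857-62602896), *1110038B12Rik* (chr17:34952449-34952488), the downstream start of *Gas5* (chr1:161035146-161035185) and *Zfas1* (chr2:167062914-167062953). The match describes these letters and does not identify a regulatory element.

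2410006H16Rik: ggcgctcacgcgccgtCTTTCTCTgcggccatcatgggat
1110038B12Rik: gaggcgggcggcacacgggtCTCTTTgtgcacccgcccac
Gas5: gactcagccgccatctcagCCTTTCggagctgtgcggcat
Zfas1: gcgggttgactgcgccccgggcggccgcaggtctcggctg

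A first frame that stops more than 50 bases upstream of an exon junction was a feature of all 5 hosts, but it is common in non-coding transcripts. By the same choice of transcript, it was found in 6189 of 8740 other multi-exon non-coding genes (70.8%), and in 821 of 1139 (72.1%) of those with enough reads to be tested. Among the 29 other non-coding snoRNA hosts tested it was found in 21, namely 6 of the 6 called higher in *Smg6*-iKO and 15 of the 23 that were not called. No test of this split was made.

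*Epb41l4aos* (ENSMUSG00000087590, GRCm38 chr18:33794892-33795986, plus strand), a non-coding gene that ends 340 bases from the end of *Epb41l4a*, hosts 1 snoRNA gene, Gm23639. It was the least abundant of the 5 in reads. It had 27.7, 25.9 and 28.3 CPM in Ctr from embryos SMH_128, SMH_132 and SMH_133. In Ctr + 4-OHT it had 21.1, 28.3, 25.8 and 19.0 CPM in embryos SMH_125, SMH_126, SMH_129 and SMH_131. In *Smg6*-iKO it had 85.5, 113.7, 91.2 and 91.0 CPM in embryos SMH_127, SMH_128, SMH_132 and SMH_133. The *Smg6*-iKO library of embryo SMH_128 was highest, as it was for each of the other 4 hosts. The log2 fold change was 2.03 (SE 0.13) against Ctr + 4-OHT and 1.80 (SE 0.098) against Ctr. The ratio within an embryo was 4.10, 3.52 and 3.22 in embryos SMH_128, SMH_132 and SMH_133. Its spliced transcript has 430 bases in 3 exons, and the stop of its first frame of 34 codons lies upstream of both junctions, each by more than 50 bases.

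Levels can be compared between genes only per length of exon, and the order depended on which length was used. Per kilobase of all annotated exon that no other gene shares, *2410006H16Rik* was highest in *Smg6*-iKO with 935 ± 101 CPM per kb. *Gas5* followed with 230.8 ± 15.98 CPM per kb and *Epb41l4aos* with 222 ± 29.1 CPM per kb, and their libraries overlapped. *1110038B12Rik* had 158 ± 9.70 CPM per kb and *Zfas1* 146 ± 9.92 CPM per kb, which overlapped as well. In Ctr the order was the same, with 327 ± 7.41, 108 ± 3.15, 63.5 ± 2.87, 43.6 ± 5.22 and 32.1 ± 2.24 CPM per kb, and no neighbours in it overlapped. Ctr + 4-OHT kept this order too, with 289 ± 62.8, 96.4 ± 12.8, 54.8 ± 9.91, 42.0 ± 4.34 and 29.3 ± 3.72 CPM per kb, and there *Epb41l4aos* and *1110038B12Rik* overlapped. The annotated exons of *Zfas1*, *Gas5* and *1110038B12Rik* include retained introns, which lengthens their denominator. The length of the spliced transcripts described above was added after the values were seen. The reads divided by it were still those of all annotated exons. Any reads in retained introns therefore raise the values of *Zfas1*, *Gas5* and *1110038B12Rik* by this length. Per kilobase of it, *Gas5* came first in *Smg6*-iKO with 1421 ± 98.4 CPM per kb and *2410006H16Rik* followed with 935 ± 101 CPM per kb. *Zfas1* (489 ± 33.2 CPM per kb) and *1110038B12Rik* (460 ± 28.2 CPM per kb) overlapped, and *Epb41l4aos* was lowest with 222 ± 29.1 CPM per kb. By this length *Gas5* was also first in Ctr, with 664 ± 19.4 CPM per kb against 327 ± 7.41 CPM per kb for *2410006H16Rik*, followed by *1110038B12Rik* (126.6 ± 15.15), *Zfas1* (107.3 ± 7.497) and *Epb41l4aos* (63.5 ± 2.87). The order was the same in Ctr + 4-OHT, where *1110038B12Rik* and *Zfas1* overlapped. *Gas5* gave 49.1% to 51.8% of the reads of the 5 hosts in the control libraries and 37.0% to 39.4% in *Smg6*-iKO, while *Zfas1* gave 11.4% to 12.4% and 18.8% to 19.9%.

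The 5 hosts also varied together within groups. After the group means were taken out of the log2 CPM, Pearson's r between pairs of hosts over the 11 libraries lay between 0.804 (*Gas5* and *1110038B12Rik*) and 0.957 (*Gas5* and *Epb41l4aos*), with a median of 0.900 over 10 pairs. Ctr + 4-OHT embryo SMH_131 was the lowest library of the series for all 5 hosts and *Smg6*-iKO embryo SMH_128 the highest. The libraries share their depth and normalization across genes, and pairs of other genes were not examined, so the correlation is a description. Over the 11 libraries, the genes outside the 5 whose log2 CPM followed the mean standardised profile most closely were *Snhg6* (r = 0.998), *Snhg12* (r = 0.998), *Snhg1* (r = 0.997), *Hnrnpdl* (r = 0.997) and *Snhg5* (r = 0.997). After group means were taken out they were *Snhg12* (r = 0.983), *Rpl12* (r = 0.973), Gm9903 (r = 0.963), *Snhg5* (r = 0.956) and *Hnrnpdl* (r = 0.954). The search covered the 18123 genes kept over all libraries. *Hnrnpdl* encodes an RNA-binding protein and *Rpl12* a ribosomal protein, and Gm9903 was counted with only 13 to 27 reads per library. The profile over the 11 libraries contains the rise that chose the hosts. Standardising also removes the size of a change, and *Hnrnpdl* had a log2 fold change of only 0.26 (SE 0.048) against Ctr + 4-OHT.

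The control groups were also compared with each other, and 0.221% of all genes tested were called between them. They differ by 4-OHT, by the RosaCreER transgene and by the embryos they came from, which cannot be told apart here, and *Esr1*, with the transgene, was among the genes called (log2 fold change -4.96, SE 0.34, adjusted p = 0.000587). The same control libraries had served in the choice of the 5 hosts, so their values are a description without a test. The log2 fold changes were -0.21 (SE 0.13) for *Epb41l4aos*, -0.18 (SE 0.15) for *2410006H16Rik*, -0.16 (SE 0.099) for *Gas5*, -0.13 (SE 0.10) for *Zfas1* and -0.05 (SE 0.10) for *1110038B12Rik*, and the libraries of the control groups overlapped for each host.

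How reads were assigned decides what can be said of the snoRNAs. A read that overlaps 2 genes was not counted for either gene. Of the 19 snoRNA genes in the 5 hosts, 15 lie wholly inside annotated host exons, since isoforms with retained introns cover them, and all 15 were listed at 0 in each of the 11 libraries. The 10 of *Gas5*, the 3 of *Zfas1* and the 2 of *1110038B12Rik* were thus not measured. The other 4, those of *2410006H16Rik* and *Epb41l4aos*, lie in introns and had 22 to 96 reads per library.

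Of the 4 counted snoRNA genes, 0 passed edgeR's test in either comparison, beside 1.17% of all genes called against Ctr + 4-OHT and 9.25% against Ctr. With limma-voom 0 of 4 passed as well, and with DESeq2 0 of 3, since it gave *Snord65* no adjusted p. *Snord49b* had 1.84, 1.82 and 1.99 CPM in Ctr, 2.16, 1.46, 1.74 and 1.84 CPM in Ctr + 4-OHT, and 1.75, 1.28, 1.83 and 1.84 CPM in *Smg6*-iKO. *Snord49a* had 2.496, 2.40 and 2.33 CPM in Ctr, 2.57, 2.87, 2.52 and 2.30 CPM in Ctr + 4-OHT, and 2.42, 2.79, 2.95 and 2.97 CPM in *Smg6*-iKO. *Snord65* had 1.25, 1.02 and 0.842 CPM in Ctr, 0.968, 0.881, 1.00 and 1.10 CPM in Ctr + 4-OHT, and 0.729, 1.03, 1.08 and 0.728 CPM in *Smg6*-iKO. The groups overlapped for all 3. Gm23639 had 2.29, 2.11 and 3.44 CPM in Ctr, 3.20, 3.68, 3.07 and 2.86 CPM in Ctr + 4-OHT, and 2.57, 1.80, 2.19 and 2.66 CPM in *Smg6*-iKO, where the *Smg6*-iKO libraries lay below those of Ctr + 4-OHT but overlapped with Ctr.

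Against Ctr + 4-OHT, the log2 fold change was 0.13 for *Snord49a* (95% interval -0.16 to 0.42, adjusted p = 0.676), -0.09 for *Snord49b* (-0.48 to 0.30, adjusted p = 0.847), -0.15 for *Snord65* (-0.58 to 0.28, adjusted p = 0.750) and -0.46 for Gm23639 (-0.80 to -0.11, adjusted p = 0.180). Without adjustment only the last passed a p under 0.05 (0 of 4 did against Ctr). Against Ctr, the values were 0.21 (-0.10 to 0.51, adjusted p = 0.374), -0.16 (-0.54 to 0.21, adjusted p = 0.586), -0.24 (-0.75 to 0.27, adjusted p = 0.554) and -0.17 (-0.62 to 0.29, adjusted p = 0.651) in the same order. The median over the 4 was -0.12 against Ctr + 4-OHT and -0.16 against Ctr, beside 0.012 and 0.0055 over all genes tested. Reads from an unspliced host intron that overlap these genes are counted on them too, so the values do not measure the mature snoRNA alone.

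For each read of *Snord49a*, the host gave 62.7 ± 3.06 reads in Ctr, 51.7 ± 7.94 in Ctr + 4-OHT and 156 ± 15.6 in *Smg6*-iKO. For *Epb41l4aos* the ratio of host to Gm23639 reads was 10.9 ± 2.31 and 7.33 ± 0.881 in the control groups, and 43.1 with a range of 33.3 to 63.3 after deletion. For *Snord49b* and *Snord65*, too, the lowest ratio after deletion (217 and 392) exceeded the highest in the controls (111 and 184). These ratios contain the host rise that chose the genes and are a description.

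**Figure D2:**
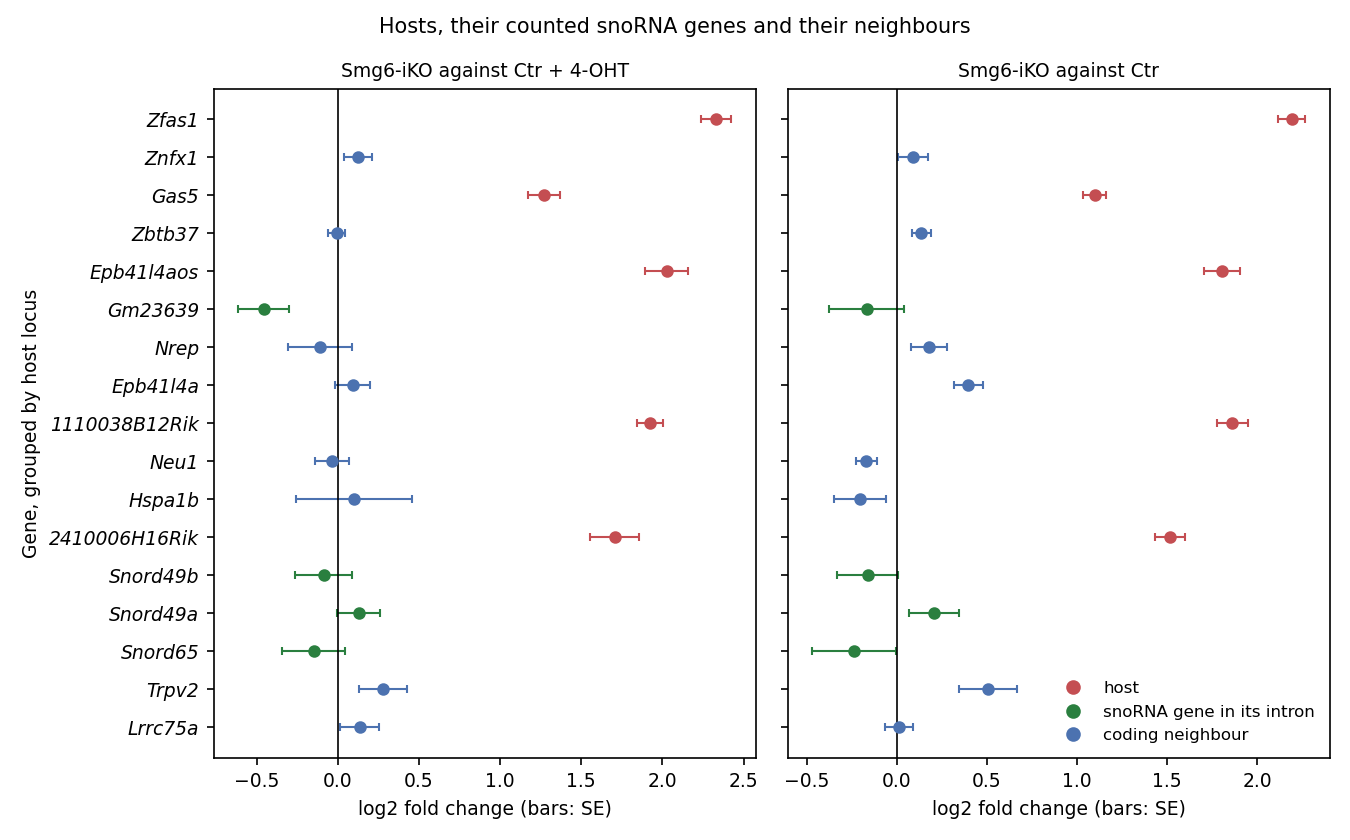
Log2 fold change with its SE (bars) of each host (red), its counted snoRNA genes (green) and 8 of the 10 neighbouring protein-coding genes (blue), against Ctr + 4-OHT (left) and Ctr (right). The hosts lie between 1.10 and 2.33, and the other genes shown between -0.46 and 0.50.

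The nearest protein-coding gene on each side of a host was read as well. Against Ctr + 4-OHT, 0 of the 10 neighbours were called by edgeR (0 also at an unadjusted p under 0.05, by DESeq2 and by limma-voom), beside 1.17% of all genes, with a median log2 fold change of 0.077. *Znfx1*, a helicase gene whose start lies 81 bases from that of *Zfas1* on the other strand, averaged 36.5 ± 3.97 CPM in *Smg6*-iKO, 33.7 ± 1.96 CPM in Ctr + 4-OHT and 34.3 ± 1.67 CPM in Ctr, with a log2 fold change of 0.13 (95% interval -0.07 to 0.32, adjusted p = 0.501) against Ctr + 4-OHT. *Zbtb37*, a zinc finger gene whose start lies 427 bases from that of *Gas5* on the other strand, had 136 ± 4.43, 138 ± 6.19 and 124 ± 5.38 CPM in these groups, with a log2 fold change of -0.01 (95% interval -0.12 to 0.10, adjusted p = 0.955). *Hspa1b* shares sequence with a near-identical copy, and its value is uncertain.

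Against Ctr, 2 of the 10 neighbours were called higher, beside 4.27% of all genes tested. *Epb41l4a* was among them (log2 fold change 0.40, SE 0.081, adjusted p = 0.0162). *Epb41l4a*, which encodes a protein of the membrane skeleton, averaged 31.9 ± 2.93 CPM in *Smg6*-iKO, 30.1 ± 4.47 CPM in Ctr + 4-OHT and 24.2 ± 1.34 CPM in Ctr. Every library of both 4-OHT groups lay above the highest Ctr library (25.1 CPM), but the difference of Ctr + 4-OHT from Ctr did not pass the test (0.31, SE 0.12, adjusted p = 0.507). The cation channel gene *Trpv2* (0.50, adjusted p = 0.0713) was called by DESeq2 (adjusted p = 0.0383), without a filter on low counts (adjusted p = 0.0183), without Ctr embryo SMH_128 (0.69, adjusted p = 0.0495) and in the blocked fit (0.50, adjusted p = 0.00928). Over the alternatives run, the adjusted p lay between 9.08e-05 and 0.0801 for *Epb41l4a*. The count of 2 became 0 without Ctr embryo SMH_132 or *Smg6*-iKO embryo SMH_133, 1 without Ctr embryo SMH_128 or *Smg6*-iKO embryo SMH_127 or SMH_132, and 0 with all libraries in one fit. It rose to 3, with *Trpv2*, without a filter on low counts, by DESeq2 and in the blocked fit.

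Other snoRNA hosts were examined for comparison. They were sorted as non-coding or protein-coding by the GENCODE gene type, which lists the chaperonin subunit gene *Cct6a* (not called) as non-coding and *Snhg11* as protein-coding. Of 58 further non-coding hosts, 29 had enough reads against Ctr + 4-OHT, of which 6 were higher and 0 lower, that is 20.7% beside 1.17% of all genes. Their median log2 fold change was 0.085, beside 1.92 for the 5 hosts chosen. *Snhg12* averaged 122.9 ± 9.90 CPM in *Smg6*-iKO and 40.4 ± 7.77 CPM in Ctr + 4-OHT, a log2 fold change of 1.61 (SE 0.13, adjusted p = 0.000223). *Snhg6* (1.36, SE 0.088, adjusted p = 7.12e-05) and *Snhg1* (1.18, SE 0.092, adjusted p = 0.000223) followed, and *Snhg8*, *Snhg5* and *1810032O08Rik* were the other 3, between 0.57 and 1.11. *1810032O08Rik* lost its call without any of 7 of the 8 libraries (all but Ctr + 4-OHT embryo SMH_126; adjusted p up to 0.119), and the other 5 kept theirs under each of 15 alternatives. The remaining hosts did not pass the test, *Snhg3* with -0.06 (95% interval -0.24 to 0.12) and *Dancr* with -0.10 (-0.44 to 0.23) among them, 2 names chosen after their values were seen. Not all of the remaining hosts lay near 0. The unadjusted intervals of *Snhg15* (0.56, 0.10 to 1.02), *Snhg10* (0.44, 0.14 to 0.74), *Snhg17* (0.33, 0.16 to 0.50), *Snhg14* (0.30, 0.05 to 0.55) and *Rian* (0.25, 0.01 to 0.49) lay above 0. That of *Cct6a* (-0.20, -0.35 to -0.06) lay below 0. Against Ctr, 8 of 31 were higher and 0 lower (25.8%, beside 9.25% of all genes), with *Rian* and *Snhg14* in addition. *Rian* lost its call with all libraries in one fit and without Ctr embryo SMH_132, and *Snhg14* in one fit and without Ctr embryo SMH_128 or SMH_133 or *Smg6*-iKO embryo SMH_133.

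Placed in the order of the 206 genes called against Ctr + 4-OHT, the 5 hosts held the ranks 2, 3, 4, 6 and 12 by log2 fold change. *Esr1* stood first (4.95), with the transgene. The interferon-induced genes *Oas1b* (1.72) and *Mx2* (1.51) and the cytokine gene *Tnfsf18* (1.45) stood among them, with values against Ctr of 0.75, 0.76 and -0.56. *Snhg12*, the host just below *2410006H16Rik* (1.70), had 1.61. *Gas5* (1.27) came after *Snhg6* (1.36) and *Aox1* (1.30), an aldehyde oxidase gene, and before *Snhg1* (1.18), Gm16973 (1.18) and the synaptotagmin gene *Syt6* (1.15).

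Protein-coding hosts were read in the same way. Against Ctr + 4-OHT, 6 of 253 were higher and 0 lower (2.37%, median log2 fold change -0.012), beside 0.757% of all genes higher and 1.17% called in either direction. *Rps12*, which encodes a ribosomal protein, had a log2 fold change of 0.83 (SE 0.098, adjusted p = 0.00395), *Rpl12* 0.78 (SE 0.10, adjusted p = 0.00661) and the prenyltransferase subunit gene *Rabggtb* 0.45 (SE 0.087, adjusted p = 0.0407). Against Ctr, 14 were higher and 16 lower (11.9%, median -0.026), beside 9.25% of all genes. With the embryo as a block 33 were higher and 50 lower, in a fit that called 3854 of all 17974 genes. The count of 6 fell to 3 without Ctr + 4-OHT embryo SMH_125 or SMH_131 or *Smg6*-iKO embryo SMH_132 or SMH_133, and *Rabggtb* lost its call without any of 7 of the 8 libraries. The count of 30 against Ctr became 11 without Ctr embryo SMH_128, 7 without SMH_132 and 17 without SMH_133, and 11, 52, 14 and 8 without *Smg6*-iKO embryos SMH_127, SMH_128, SMH_132 and SMH_133.

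**Figure D3:**
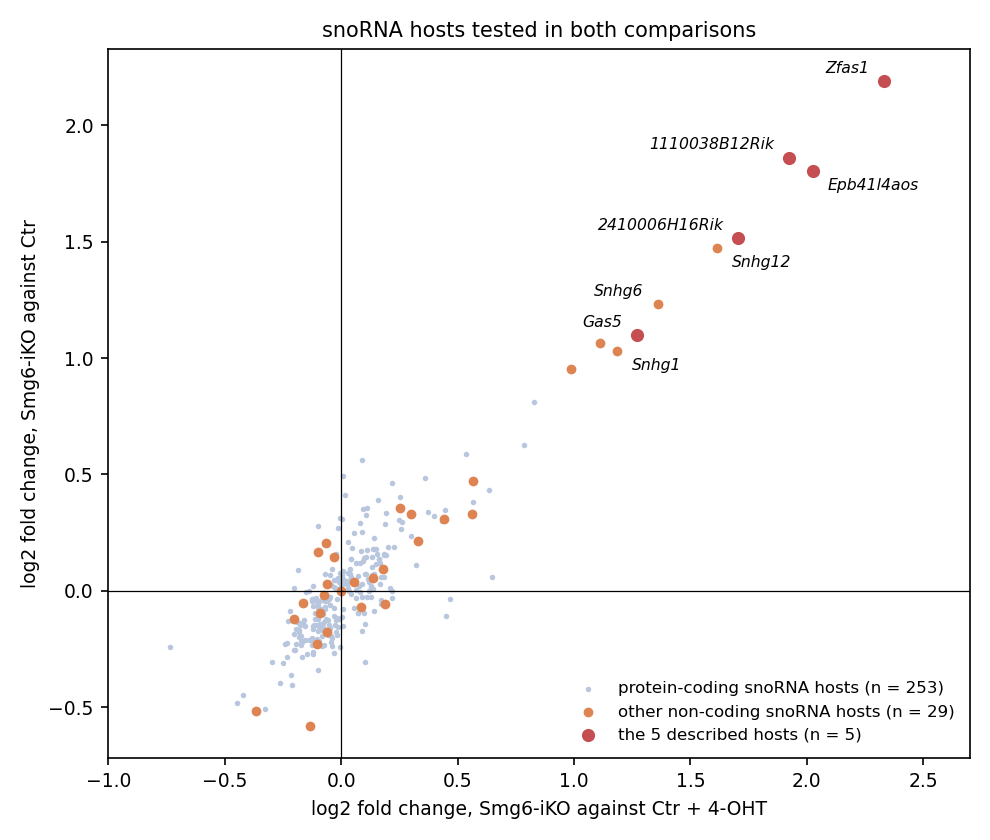
Log2 fold change of snoRNA hosts against Ctr + 4-OHT (x axis) and Ctr (y axis), with 1 point per gene for 253 protein-coding hosts (blue), 29 other non-coding hosts (orange) and the 5 described here (red). The axes share the *Smg6*-iKO libraries, so the position along the diagonal is not independent evidence, and most hosts lie near 0 while the 5 lie between 1.10 and 2.33. The choice of the 5 favours high values, and *Snhg12* (1.61 and 1.47) and *Snhg6* (1.36 and 1.23) lie in the same range.

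The NMD machinery itself was read in the same libraries. Of 10 NMD factors, 3 were higher against Ctr + 4-OHT and 0 lower, with a median log2 fold change of 0.21, beside 0.757% of all genes called higher. *Smg5*, an adaptor that recruits decay enzymes, had 0.32 (SE 0.052, adjusted p = 0.0202), the kinase gene *Smg1* 0.30 (SE 0.055, adjusted p = 0.0358) and *Smg9*, a partner of that kinase, 0.36 (SE 0.068, adjusted p = 0.0363). *Smg6* had -0.06 (SE 0.066, adjusted p = 0.703). Against Ctr, *Smg5* (0.43, SE 0.060, adjusted p = 0.00349) and *Smg9* (0.28, SE 0.075, adjusted p = 0.0420) were higher, 2 of the 10 beside 4.27% of all genes, and *Smg6* had -0.17 (SE 0.071, adjusted p = 0.148). With the embryo as a block, which called 3854 of all 17974 genes, 6 of the factors were called, 5 higher, *Smg1* and *Upf1* now among them, and *Smg6* lower (-0.15, adjusted p = 0.043). The 3 calls against Ctr + 4-OHT became 0 without Ctr + 4-OHT embryo SMH_125 or SMH_129 or *Smg6*-iKO embryo SMH_127, SMH_132 or SMH_133, 1 without Ctr + 4-OHT embryo SMH_131 or *Smg6*-iKO embryo SMH_128 and 2 without Ctr + 4-OHT embryo SMH_126. Against Ctr the count was 1 without any of the 3 Ctr libraries or without *Smg6*-iKO embryo SMH_132 or SMH_133, and 3 without *Smg6*-iKO embryo SMH_128.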

How the data were processed

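RNA was taken from cultured NPCs 6 days after 4-OHT treatment, and ribosome-depleted stranded libraries were sequenced. The counts, as deposited by the authors, are whole reads per gene without normalization. Per the study's methods, reads were aligned with STAR 2.5.4b to GRCm38 and counted by strand with featureCounts 1.5.0 on Ensembl 92, and reads that mapped repeatedly or overlapped several genes were not counted. Each comparison was fitted on its own groups with edgeR 4.0.16 in R 4.3.3 (filterByExpr, TMM factors, quasi-likelihood test, Benjamini-Hochberg adjustment over all genes tested, threshold 0.05). SEs are the log2 fold change over the root of F. DESeq2 1.42.0, limma-voom 3.58.1, other scalings and filters, all libraries in one fit, and leaving out each library were alternatives. For log2 CPM a prior count of 2 was added. Gene models and transcripts were from GENCODE M21 (GRCm38) and start windows from RefSeq (GRCm38.p6). The fits were tested on simulated counts.

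The 5 hosts and the gene lists were chosen with earlier results of these data known. Genes were named as members, their snoRNA genes and nearest coding neighbours, some of the called hosts, NMD factors, and the genes nearest in profile or rank. The protein-coding hosts named were not simply the strongest called, since *Tmem62* was called and rose more than *Rabggtb* against the treated controls. Embryos SMH_128, SMH_132 and SMH_133 each gave a Ctr and a *Smg6*-iKO culture, and the deviations of such pairs from their group means correlated with r = 0.328, 0.399 and 0.425 across genes, against -0.265 to 0.0948 for cultures of different embryos. The 3 comparisons share libraries. Some of the genes in the lists are counted but not reported by name here.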

Additional observations from a re-analysis of the deposited data

Results flagged for a closer look

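In 3 of 72 groups of 4 libraries examined, 1 library stood apart from the other 3, with a gap to the nearest above Dixon's 95% critical value relative to the group's whole range. Chance flags about 1 in 20 groups. *Snord49b* had 1.283 CPM in *Smg6*-iKO embryo SMH_128 against 1.75 to 1.84 CPM in the other 3, and *Snhg12* had 137.5 CPM in the same library against 115.7 to 119.1 CPM. *Smg5* had 143.4 CPM in *Smg6*-iKO embryo SMH_133 against 132.5 to 133.8 CPM.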

How the results depend on the processing

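The log2 fold changes of the 5 hosts between *Smg6*-iKO and either control group kept their sign. Leaving out 1 library at a time gave 2.253 to 2.398 for *Zfas1* against Ctr + 4-OHT and 1.196 to 1.335 for *Gas5*, and 2.138 to 2.232 and 1.048 to 1.119 against Ctr. Counts over all genes moved more. Against Ctr + 4-OHT the 206 calls became 418 without a filter, 484 with all libraries in one fit, 873 with DESeq2 and 66 to 174 without 1 library. Against Ctr the 1663 calls became 2714, 796, 2421 and 570 to 2524, and between the controls the 39 calls became 198, 60, 169 and 5 to 54.

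With the embryo as a replicate block, 3854 genes were called against Ctr (1843 higher and 2011 lower), and the median log2 fold change of the hosts was 1.847. The block raised the calls among protein-coding hosts to 83 and among NMD factors to 6.

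Of the protein-coding hosts, 10 were called against Ctr + 4-OHT with all libraries in one fit, 18 with DESeq2 and 3 to 5 without 1 library. Against Ctr they were 11, 62 and 7 to 52, and 51 without a filter. Other non-coding hosts gave 5 to 6 calls without 1 library against Ctr + 4-OHT and 7 to 9 against Ctr. NMD factors gave 0 to 2 calls without 1 library against Ctr + 4-OHT, and against Ctr 1 to 3, and 4 with DESeq2. Neighbours gave 0 to 2 against Ctr without 1 library and 0 in one fit. *Zbtb37* against Ctr + 4-OHT turned from -0.008078 to 0.009177 with upper-quartile factors. Without 1 library, values against Ctr + 4-OHT ranged from -0.03544 to 0.01502 for *Zbtb37*, -0.1743 to 0.01158 for *Snord49b*, -0.2811 to 0.01774 for *Nrep*, -0.1315 to 0.05353 for *Neu1* and -0.176 to 0.4721 for *Hspa1b*. Against Ctr they ranged from -0.3132 to 0.07039 for Gm23639, -0.0247 to 0.05662 for *Lrrc75a* and -0.04582 to 0.05667 for *Upf2*, and between the controls from -0.1048 to 0.05778 for *1110038B12Rik*. The cause was not tested. The 22 to 96 reads behind each snoRNA value limit their intervals.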
